A study of Homo sapiens with 3 samples.

Results

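The genes described are 33 of the 36601 genes counted in single cells of OVCAR3, a human line established from a high-grade serous ovarian cancer. They were chosen by symbol and comprise the 13 mRNAs of the mitochondrial genome and 20 nuclear genes whose products transcribe, replicate, process or stabilise that genome and its RNA. Treatment lasted 48 hours and was DMSO alone, RAC1i at 50 μM, or RAC1i at 50 μM together with EZH2i at 5 μM (Combo). NSC23766 (RAC1i) inhibits RAC1, a small GTPase, and GSK126 (EZH2i) inhibits EZH2, a histone methyltransferase. Each of the 3 conditions was 1 library, so no test between conditions was possible and a condition cannot be told apart from its library. The comparison asks which transcripts of mitochondrial gene expression differed after RAC1 inhibition, alone or with EZH2 inhibition.

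The mitochondrial genome is a small circular DNA whose strands are transcribed into long polycistronic RNAs. These are cut mostly at the tRNAs that punctuate them, and most of the released mRNAs receive a poly(A) tail, which completes the stop codon where the DNA encodes only part of it. All proteins needed for this, from the RNA polymerase to the poly(A) polymerase, are encoded in the nucleus and imported. The 13 mRNAs encode core subunits of respiratory complexes I, III and IV and of the ATP synthase.

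The library kit primes on poly(A) tails near the 3′ ends of transcripts, which need not lie at the ends of the annotated genes. The ends of the 4 genes whose shares differed most between RAC1i and DMSO are shown. Capitals mark the last codon, or the part of a stop codon that the DNA encodes. They are the last 30 bases of each annotated gene on the strand of the transcript, read from GRCh38, and are not shown as priming sites.
MT-CO2 (chrM:8240-8269, plus strand): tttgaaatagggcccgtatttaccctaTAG
MT-CO3 (chrM:9961-9990, plus strand): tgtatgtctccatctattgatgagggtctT
MT-ND2 (chrM:5482-5511, plus strand): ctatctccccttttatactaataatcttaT
MT-ND6 (chrM:14149-14178, minus strand): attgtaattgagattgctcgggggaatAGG
MT-CO2 and MT-ND6 ended in a whole stop codon, and MT-CO3 and MT-ND2 in a single T. In all, 6 of the 13 genes (MT-ND1, MT-ND2, MT-ND3, MT-ND4, MT-CO3 and MT-CYB) ended in an incomplete stop codon.

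Some of the genes overlap, which limits how their UMIs (unique molecular identifiers, which mark captured molecules) can be assigned. MT-ATP6 and MT-CO3 share a base of the plus strand at chrM:9207-9207, and the 30 bases around it carry the stop of the former and the start of the latter as TAATG, in capitals here.
MT-ATP6/MT-CO3 junction (chrM:9192-9221, plus strand): gcacgacaacacaTAATGacccaccaatca
MT-ATP8 and MT-ATP6 lie on a shared mRNA and overlap by 46 bases in different reading frames, and MT-ND4L and MT-ND4 lie on another and overlap by 7 bases.
MT-ATP8/MT-ATP6 overlap (chrM:8527-8572, plus strand): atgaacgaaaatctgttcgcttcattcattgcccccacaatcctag
A UMI from such an mRNA goes to the gene in which its read falls, and the nuclear genome holds copies of mitochondrial sequence that can take reads, so the values of MT-ATP8, MT-ND4L and their partners are less certain than the others.

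Of 10071 barcodes of DMSO, 11772 of RAC1i and 9757 of Combo, 7531, 10215 and 8239 were kept as cells (log10 of genes over log10 of UMIs above 0.8, no more than 20% of UMIs mitochondrial, and over 1000 genes). Their UMIs summed to 199063947, 234969742 and 212792113, and the median cell had 26750, 20989 and 24953. The limit on mitochondrial UMIs did not act equally, since 1592 DMSO barcodes (15.8%), 534 RAC1i barcodes (4.54%) and 508 Combo barcodes (5.21%) lay over it. Between 29 and 30 barcodes were shared by each pair of libraries. The epithelial and ovarian markers PAX8, WT1, EPCAM, KRT7, KRT8, KRT18 and MUC16 were present in every library. Of the 7, 4 were lower past 1.5-fold in both treated libraries, beside 35.8% of all genes tested in RAC1i and 34.0% in Combo. PAX8 was at 355 CPM in DMSO, 54.3 in RAC1i and 47.8 in Combo. Of the markers of other cell types, PTPRC, HBB, LYZ and PECAM1 did not exceed 1.49 CPM and COL1A1 lay between 5.51 and 5.69 CPM.

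Levels are CPM, a gene's total of UMIs in the kept cells after scaling the library to 1000000 UMIs, and are compared within a gene and not between genes. Intervals are at 95% and exact, by Poisson for CPM, by the conditional method for ratios and by Clopper-Pearson for shares, and they hold counting error alone, without the spread between cultures. A gene was counted as higher or lower when its CPM ratio passed 1.5-fold, among the 9745 genes with a mean of at least 5 CPM over the 3 libraries. The median log2 ratio of these genes was -0.18 for RAC1i over DMSO, -0.15 for Combo over DMSO and 0.02 for Combo over RAC1i. Both treated libraries are compared with the same DMSO library, so their ratios to it are not independent of each other.

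Transcripts of the mitochondrial genome took up far less of the RNA in the treated libraries. The 13 mRNAs together summed to 61495 CPM in DMSO, 18053 in RAC1i and 16941 in Combo. Their total was 3.41-fold lower in RAC1i than in DMSO (ratio 0.294, interval 0.293 to 0.294, log2 -1.77) and 3.63-fold lower in Combo (ratio 0.275, interval 0.275 to 0.276, log2 -1.86). As a mean over cells, in which each cell counts alike, the log2 ratio of the total was -1.17 in RAC1i and -1.11 in Combo. The treated libraries lay close together, with a log2 ratio of Combo over RAC1i of -0.09. A lower share of all UMIs does not tell fewer mitochondrial transcripts per cell from more of the other RNA. All 13 mRNAs were lower past 1.5-fold in RAC1i and all 13 in Combo, where 35.8% of the genes tested were lower in RAC1i and 34.0% in Combo. In that mean MT-ND2 and MT-ND6 stayed under 1.5-fold in RAC1i, at log2 ratios of -0.57 and -0.44. In Combo the mean over cells left MT-ND2, MT-ND4L, MT-ND5 and MT-ND6 under 1.5-fold, at -0.21, -0.20, -0.37 and -0.22, and MT-ATP8 at 0.034.

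**Figure D1:**
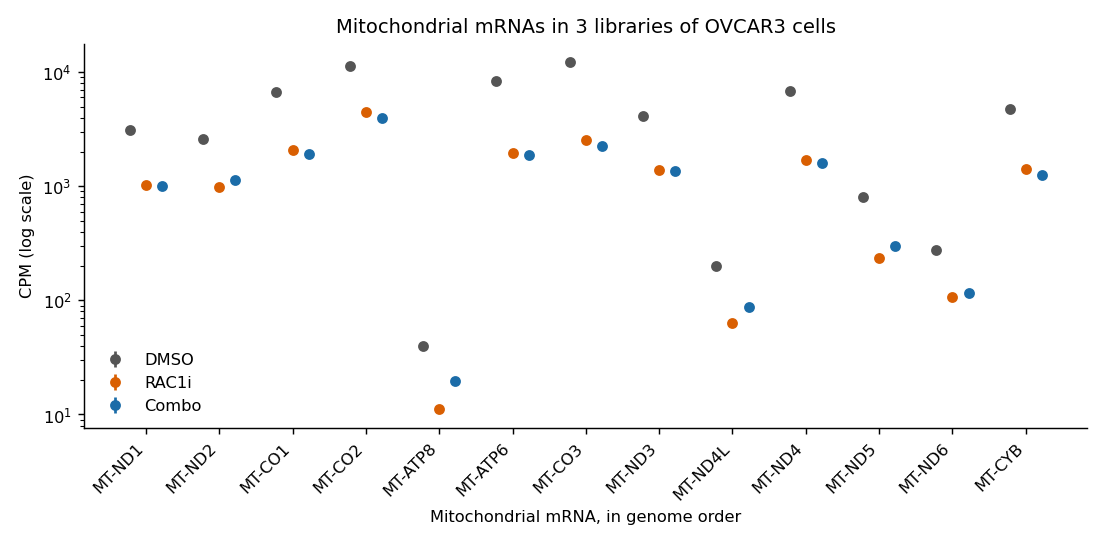
CPM on a log axis of each mitochondrial mRNA in genome order, with 1 point per library and exact 95% Poisson intervals, which are mostly smaller than the points. In each of the 13 genes the DMSO point lies above those of RAC1i and Combo.

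In RAC1i the mRNAs with the largest and the smallest difference in CPM both belonged to complex IV. MT-CO3, which encodes a core subunit of cytochrome c oxidase (chrM:9207-9990), was at 12396 CPM in DMSO, 2553 in RAC1i and 2273 in Combo. It differed most of the 13, by 4.86-fold in RAC1i (ratio 0.206, interval 0.205 to 0.207) and 5.45-fold in Combo (ratio 0.183, interval 0.183 to 0.184). MT-CO2 (chrM:7586-8269), whose product takes electrons from cytochrome c, was at 11349, 4518 and 3968 CPM, and differed least in RAC1i, by 2.51-fold (ratio 0.398, interval 0.397 to 0.399). In Combo its ratio was 0.350 and the smallest difference was that of MT-ATP8, with a ratio of 0.490, and as a mean over cells MT-ND6 and MT-ND2 differed less than MT-CO2 in RAC1i. MT-CO1 (chrM:5904-7445), the subunit with the oxygen-reducing site, lay between them at 6655, 2075 and 1936 CPM. Among neighbours on the same strand of the genome, MT-CO2 and MT-CO3 were therefore at opposite ends of the order in RAC1i, with only the ATP synthase genes of the 13 between them.

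The ATP synthase mRNA MT-ATP6, part of the proton channel, was at 8372 CPM in DMSO, 1962 in RAC1i and 1879 in Combo, 4.27-fold and 4.46-fold lower. MT-ATP8, its partner on the same mRNA, gave 39.8, 11.2 and 19.5 CPM. MT-CYB, the complex III subunit cytochrome b, was at 4767, 1421 and 1254 CPM, with log2 ratios to DMSO of -1.75 and -1.93.

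The 7 complex I mRNAs had log2 ratios between -2.00 and -1.37 in RAC1i. MT-ND4 was at 6832 CPM in DMSO, 1711 in RAC1i and 1612 in Combo and was the lowest of them relative to DMSO, at 3.99-fold and 4.24-fold. MT-ND2 was at 2577, 984 and 1131 CPM, a 2.62-fold and 2.28-fold difference. MT-ND6, which unlike the other 12 is encoded on the opposite strand, was at 274, 106 and 116 CPM, 2.58-fold and 2.37-fold lower. By CPM the low ratio thus included MT-ND6, but this gene alone stands for the opposite strand, so no difference between strands can be read from it. The kit primes on poly(A) tails, and whether it captures MT-ND6 like the other mRNAs was not tested. In DMSO its share of mitochondrial UMIs was 1.38% in cells under 5000 UMIs and 0.361% in cells over 40000. As a mean over cells the log2 ratio of MT-ND6 was -0.44 in RAC1i and -0.22 in Combo. MT-ND1 was at 3128, 1030 and 1000 CPM, MT-ND3 at 4090, 1382 and 1364 CPM and MT-ND5 at 813, 236 and 301 CPM. MT-ND4L, which shares its mRNA with MT-ND4, gave 201, 63.9 and 88.3 CPM.

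The median cell had 5.60% mitochondrial UMIs in DMSO, 1.66% in RAC1i and 1.58% in Combo. Cells of DMSO ranged from 0.300% at the 5th percentile to 12.9% at the 95th, those of RAC1i from 0.512% to 7.91% and those of Combo from 0.487% to 9.40%. Of 10215 RAC1i cells, 91.0% (interval 90.4% to 91.5%) lay below the DMSO median, as did 89.6% (88.9% to 90.2%) of 8239 Combo cells. The distributions overlapped at the low end, where 1493 of 7531 DMSO cells (19.8%, interval 18.9% to 20.7%) lay below the RAC1i median.

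**Figure D2:**
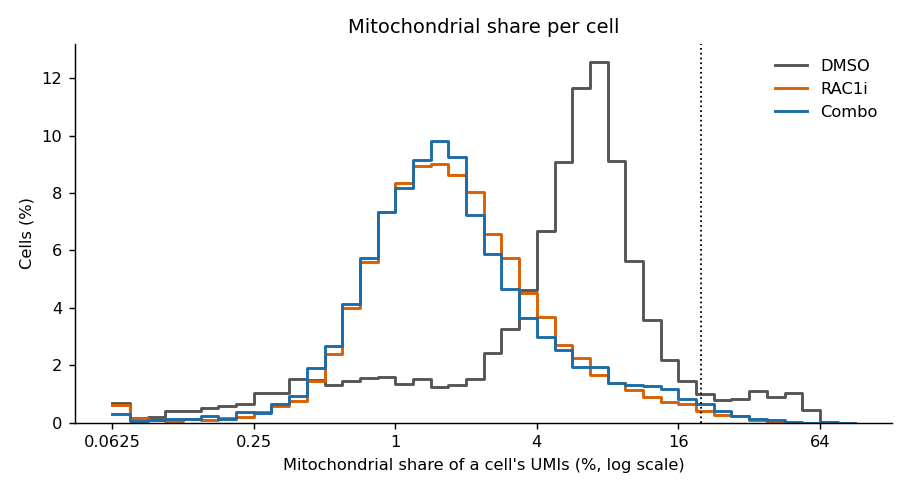
Percentage of the cells of each library against the mitochondrial share of their UMIs, on a log axis in bins of 0.25 log2 units, for cells that passed the limits on genes and complexity. The dotted line marks the 20% limit, and cells left of the first tick stand in the lowest bin. DMSO peaks near 6% to 8% with a long low shoulder, and RAC1i and Combo peak between 1% and 2%.

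Among kept cells the direction of this difference depended on the depth of the cell. In cells with 20000 to 40000 UMIs mitochondrial UMIs made up 6.72% in DMSO (3372 cells), 1.68% in RAC1i (3889) and 1.53% in Combo (3266). In cells over 40000 UMIs they made up 5.51%, 1.41% and 1.36%, and in cells with 10000 to 20000 UMIs 7.55%, 2.06% and 2.13%. The order was the opposite in shallower cells. With 5000 to 10000 UMIs the shares were 2.95% in DMSO (854 cells), 3.45% in RAC1i (1217) and 4.22% in Combo (917). Under 5000 UMIs they were 2.24% in DMSO (806 cells), 6.98% in RAC1i (1015) and 7.75% in Combo (885), a log2 ratio of 1.64 for RAC1i and 1.79 for Combo. Shallow kept cells were thus low in mitochondrial UMIs in DMSO and high in the treated libraries. The 20% limit had first removed barcodes that were shallow and mostly of DMSO. Those that passed the other limits numbered 468 in DMSO, 95 in RAC1i and 111 in Combo, with medians of 6260, 2976 and 3054 UMIs. The order of shallow barcodes without this limit was not tested. The quintile of DMSO cells with the lowest mitochondrial share had a median of 6516 UMIs, against 34356 in the next quintile, whereas in RAC1i and Combo the quintile with the highest share was shallow, at 6876 and 5864 UMIs.

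**Figure D3:**
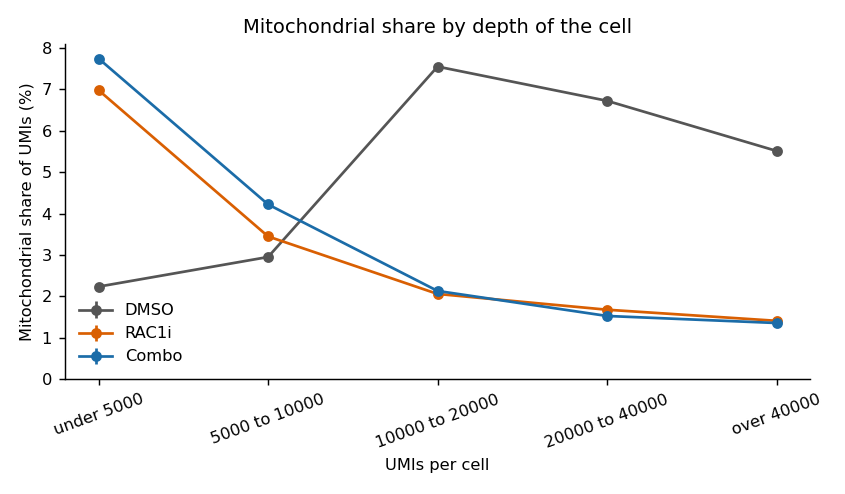
Mitochondrial share of UMIs (%) in kept cells of each library against the depth of the cells in 5 bins, with exact 95% intervals smaller than most points. Above 10000 UMIs the DMSO points lie at 5.51% to 7.55% and the treated points at 1.36% to 2.13%, and under 10000 UMIs DMSO lies below both treated libraries.

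The treated libraries also held the 13 mRNAs in other proportions. MT-CO3 made up 20.2% of the mitochondrial UMIs in DMSO, 14.1% in RAC1i and 13.4% in Combo. MT-CO2 made up 18.4% in DMSO, 25.03% in RAC1i and 23.4% in Combo. For each UMI of MT-CO2 there were 1.09 of MT-CO3 in DMSO (interval 1.09 to 1.09), 0.565 in RAC1i (0.563 to 0.567) and 0.573 in Combo (0.571 to 0.575). MT-ATP6 followed MT-CO3, with 13.6%, 10.9% and 11.1%, as did MT-ND4 with 11.1%, 9.48% and 9.52%. Shares that were higher in the treated libraries included MT-ND2 (4.19%, 5.45% and 6.68%), MT-ND6 (0.446%, 0.590% and 0.683%, though RAC1i exceeded DMSO in 3 of 5 bins of depth), MT-ND3 (6.65%, 7.66% and 8.05%) and MT-ND1 (5.09%, 5.70% and 5.90%). MT-CO1 stayed between 10.8% and 11.5% and MT-CYB between 7.40% and 7.87%. Since shares add up to a whole, a lower share of an mRNA raises those of the rest.

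These proportions were compared again among cells of like mitochondrial share. Cells were placed in 6 bins of share from 0 to 20%. Cells of like share were not of like depth. In the bin up to 0.5% the median was 7444 UMIs in DMSO, 23523 in RAC1i and 27406 in Combo. In the bin of over 8% it was 24260, 3394 and 3616 UMIs. The bins therefore do not separate the library from the depth of its cells. MT-CO3 held 19.6% to 22.4% of the mitochondrial UMIs in every DMSO bin, 11.6% to 15.1% in every RAC1i bin and 11.8% to 14% in every Combo bin, so that the ranges of DMSO and the treated libraries did not overlap. MT-CO2 held a larger share in RAC1i than in DMSO in each of the 6 bins, and its ranges met, at 17.2% to 21.6% in DMSO and 21.6% to 29.9% in RAC1i. Within RAC1i its share was 29.9% in cells with under 0.5% mitochondrial UMIs and 21.6% in cells with over 8%. MT-ATP6 held a smaller share in RAC1i than in DMSO in 6 of 6 bins, as in Combo, from 14.55% in DMSO and 8.59% in RAC1i in the lowest bin to 14.2% and 12.6% in the highest. For MT-ND2 the share exceeded that of DMSO in all 6 bins of RAC1i and all 6 of Combo.

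In the bin of over 2% to 4%, which was chosen after the data were seen and holds 948 DMSO, 2564 RAC1i and 1791 Combo cells, the log2 ratio of shares of RAC1i over DMSO was -0.41 for MT-CO3 (-0.51 over all kept cells), 0.43 for MT-ND2 (0.38), 0.40 for MT-ND6 (0.40) and 0.29 for MT-ND1 (0.16). The share of MT-ND6 was higher in RAC1i in 4 of the 6 bins and lower in the others, at 1.07% in DMSO and 0.565% in RAC1i in cells of over 0.5% to 1% and at 0.622% and 0.542% in those of over 1% to 2%. In that bin it was nearer to 0 for MT-CO2, at 0.15 against 0.44, for MT-ATP6, at -0.04 against -0.32, and for MT-ND4, at -0.11 against -0.23. This did not hold in the other bins alike, since in the lowest bin MT-CO2 held 17.2% in DMSO and 29.9% in RAC1i. The lower shares of MT-CO3 and MT-ATP6 and the higher shares of MT-ND2 and MT-CO2 in RAC1i were therefore present in each of the 6 bins, by amounts that varied between bins.

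**Figure D4:**
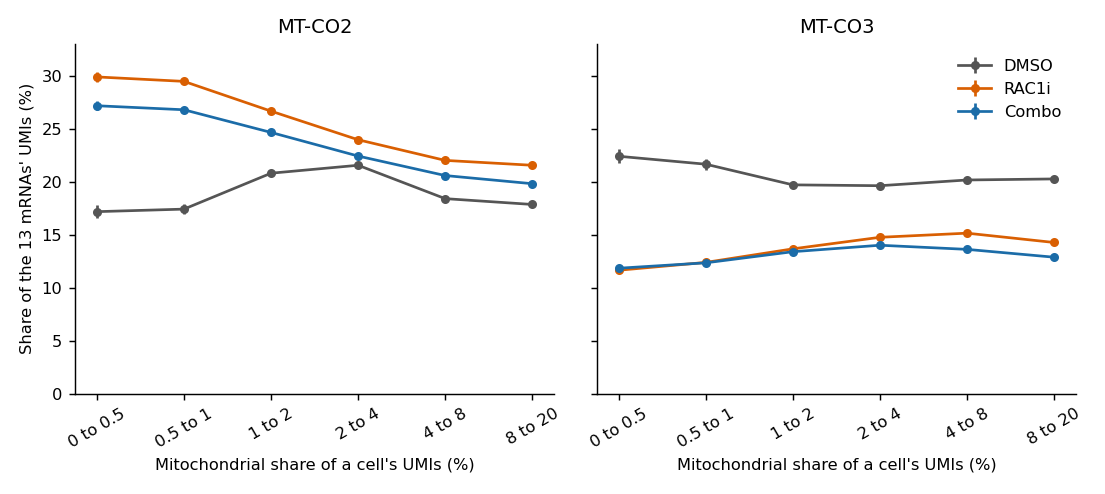
Share (%) of the UMIs of the 13 mitochondrial mRNAs that belong to MT-CO2 (left) and MT-CO3 (right), by the mitochondrial share of the cells in 6 bins, for each library, with 95% counting intervals by the normal approximation. In the MT-CO3 panel every DMSO point, from 19.6% to 22.4%, lies above every treated point, from 11.6% to 15.1%.

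Combo differed from RAC1i in a few proportions. Over all genes tested, 0.328% were higher and 0.534% lower past 1.5-fold in Combo over RAC1i, and of the 33 genes MT-ATP8 was the 1 that passed, 1.75-fold higher (interval 1.67 to 1.84). MT-ATP8 made up 0.0648% of the mitochondrial UMIs in DMSO, 0.0619% in RAC1i and 0.115% in Combo. MT-ND4L made up 0.327%, 0.354% and 0.521%, MT-ND5 1.32%, 1.31% and 1.78%, and MT-ND2 4.19%, 5.45% and 6.68%. The shares of MT-ATP8, MT-ND4L, MT-ND5 and MT-ND2 were higher in Combo than in RAC1i in 5 of 5 bins of depth and in 6 of 6 bins of mitochondrial share. MT-ATP8 and MT-ND4L are the upstream genes of the overlapping pairs. For each UMI of MT-ATP6 there were 0.00476 of MT-ATP8 in DMSO, 0.00569 in RAC1i and 0.0104 in Combo, and for each UMI of MT-ND4 there were 0.0295, 0.0373 and 0.0548 of MT-ND4L.

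The 20 nuclear genes did not share 1 direction, and more of them were higher than lower. Of the 20, 19 reached the minimum of 5 CPM, and 10 of these were higher and 3 lower past 1.5-fold in RAC1i over DMSO, where 22.6% of all genes tested were higher and 35.8% lower. In Combo over DMSO again 10 were higher and 3 lower, where 21.5% were higher and 34.0% lower. Their median log2 ratio was 0.64 in RAC1i and 0.66 in Combo, beside -0.18 and -0.15 for all genes. Past 2-fold, 6 were higher and 1 lower in RAC1i, beside 13.1% and 23.2% of all genes, and 5 and 1 in Combo, beside 12.0% and 21.3%. In Combo over RAC1i none of the 19 passed in either direction and their median was -0.03.

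**Figure D5:**
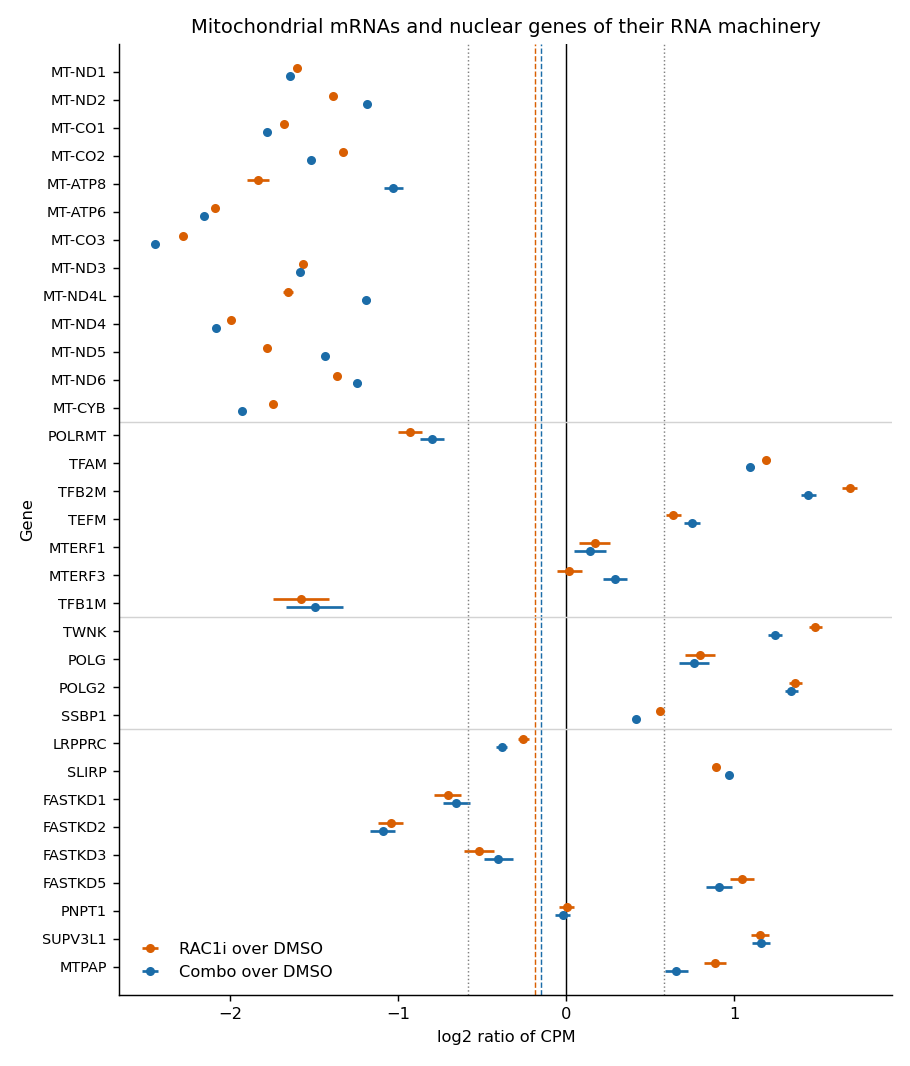
log2 ratio of CPM of RAC1i and Combo over DMSO for the 33 genes, with exact 95% intervals for counting error. Grey lines separate the mitochondrial mRNAs from the nuclear genes of transcription, replication, and RNA stability and processing, dotted lines mark 1.5-fold and dashed lines the median of all genes tested. Every mitochondrial mRNA lies left of -1, and the nuclear genes spread from -1.58 to 1.69.

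Mitochondrial transcription needs the polymerase POLRMT and 2 initiation factors, TFAM, which bends and packages the DNA, and TFB2M, which helps melt the promoter. The polymerase and its factors differed in direction. POLRMT was at 21.7 CPM in DMSO, 11.4 in RAC1i and 12.5 in Combo, 1.91-fold lower in RAC1i (ratio 0.525, interval 0.5 to 0.551). TFAM was at 119 CPM in DMSO, 273 in RAC1i and 255 in Combo, 2.29-fold higher in RAC1i (interval 2.25 to 2.32). TFB2M was the most different of the nuclear genes upward, at 26.2, 84.5 and 71.2 CPM, 3.23-fold higher in RAC1i (interval 3.13 to 3.33) and 2.72-fold higher in Combo (interval 2.63 to 2.81). TEFM, the elongation factor, was at 28.8, 44.8 and 48.4 CPM, 1.56-fold and 1.68-fold higher. It stayed under 1.5-fold in RAC1i at 10000 to 40000 UMIs, over a total without mitochondrial mRNAs and as a mean over cells, with log2 ratios of 0.58, 0.57 and 0.46, and in Combo as a mean over cells, at 0.57. MTERF1, which binds a termination site behind the rRNA genes, was at 8.11, 9.13 and 8.96 CPM, and MTERF3, of the same family, at 13.2, 13.4 and 16.2 CPM, neither past 1.5-fold. TFB1M, a paralogue of TFB2M that methylates the small ribosomal RNA, was at 5.39 CPM in DMSO, 1.80 in RAC1i and 1.91 in Combo, and its mean lay under the minimum. The paralogues TFB1M and TFB2M thus had opposite directions, with log2 ratios of -1.58 and 1.69 in RAC1i.

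Of the 4 genes of mitochondrial DNA replication, 3 were higher past 1.5-fold in RAC1i and 3 in Combo, beside 22.6% and 21.5% of all genes. TWNK, the replicative helicase, was at 37.0 CPM in DMSO, 103 in RAC1i and 87.6 in Combo, 2.79-fold (interval 2.72 to 2.87) and 2.37-fold (2.31 to 2.43) higher. POLG, the catalytic subunit of the DNA polymerase, was at 8.02, 13.9 and 13.6 CPM, and POLG2, its accessory subunit, at 38.0, 98.0 and 96.3 CPM. The accessory subunit differed more than the catalytic subunit, 2.58-fold against 1.74-fold in RAC1i. SSBP1, which coats single-stranded mitochondrial DNA, was at 310, 458 and 414 CPM, a log2 ratio of 0.56 in RAC1i and 0.41 in Combo, both under 1.5-fold. In RAC1i it passed 1.5-fold by TMM, by size factors and over every barcode, at 0.64, 0.68 and 0.595.

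Of the 9 genes of RNA stability and processing, 4 were higher and 2 lower past 1.5-fold in both treated libraries, beside 22.6% higher and 35.8% lower of all genes in RAC1i and 21.5% and 34.0% in Combo. LRPPRC and SLIRP form a complex that binds and stabilises most mitochondrial mRNAs. SLIRP was at 399 CPM in DMSO, 742 in RAC1i and 783 in Combo, 1.86-fold and 1.96-fold higher, whereas LRPPRC was at 74.3, 62.4 and 57.0 CPM, a log2 ratio of -0.25 and -0.38. The transcripts of these partners therefore did not keep the same ratio. MTPAP, the mitochondrial poly(A) polymerase, was at 12.9, 23.8 and 20.3 CPM, 1.85-fold (interval 1.76 to 1.94) and 1.58-fold (1.501 to 1.66) higher. SUPV3L1, the helicase of the RNA-degrading complex, was at 20.6, 45.8 and 46.0 CPM, 2.23-fold and 2.24-fold higher. PNPT1, the exoribonuclease of that complex, was at 40.1, 40.2 and 39.6 CPM, ratios of 1.00 (interval 0.972 to 1.03) and 0.987 (0.957 to 1.02).

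The FASTKD proteins are RNA-binding proteins that act on separate sets of mitochondrial transcripts. FASTKD5, which acts on mRNA ends that no tRNA marks, such as the MT-ATP6/MT-CO3 junction shown above, was at 10.7 CPM in DMSO, 22.1 in RAC1i and 20.1 in Combo, 2.07-fold and 1.88-fold higher. TBRG4, a relative also named FASTKD4 that is not 1 of the 33, was at 42.8, 79.0 and 83.6 CPM, 1.85-fold (interval 1.80 to 1.90) and 1.96-fold higher. None of FASTKD1, FASTKD2 and FASTKD3 was higher. FASTKD2, which binds the large ribosomal RNA and MT-ND6, was at 21.3, 10.3 and 9.99 CPM, 2.06-fold lower in RAC1i. FASTKD1 was at 15.3, 9.36 and 9.71 CPM, 1.63-fold lower in RAC1i and 1.57-fold lower in Combo, where TMM and size factors left it under 1.5-fold at log2 ratios of -0.56 and -0.54. FASTKD3 was at 11.7, 8.19 and 8.88 CPM, with log2 ratios of -0.52 and -0.40. It passed 1.5-fold as a mean over cells, at -0.76 in RAC1i and -0.70 in Combo, and in Combo at 10000 to 40000 UMIs, at -0.59.

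Because shallow kept cells differed between the libraries, the nuclear genes were also compared within bins of depth. Counts of bins use CPM of the UMIs without the 13 mitochondrial mRNAs, and ratios use CPM of all UMIs. TFAM, TFB2M, TWNK, POLG, POLG2, FASTKD5, SUPV3L1 and MTPAP exceeded their DMSO level in RAC1i in 5 of 5 bins of depth and in 6 of 6 bins of mitochondrial share, and the same held for Combo. FASTKD2 and FASTKD3 were lower in all of these bins in both treated libraries, as was TFB1M, whose mean lay under the minimum. The bins are parts of the same libraries, and those of mitochondrial share differ in depth between libraries, as given above. Some hold few UMIs, such as 6 of POLG in DMSO cells under 5000 UMIs. How many of all genes kept their direction in every bin was not counted. In cells with 20000 to 40000 UMIs the ratios of RAC1i over DMSO were 2.44 for TFAM (interval 2.39 to 2.50), 3.39 for TFB2M (3.25 to 3.55), 2.69 for TWNK (2.59 to 2.80) and 0.501 for POLRMT (0.467 to 0.537). The sizes varied with depth. Under 5000 UMIs the ratios were 1.15 for TFAM (1.01 to 1.32), 1.70 for TFB2M (1.29 to 2.25) and 11.8 for TWNK (8.69 to 16.4), and in Combo that of TFAM was 1.07, with an interval of 0.930 to 1.23 that holds 1. POLRMT was lower in RAC1i in 5 of 5 bins of depth and in Combo in 4 of 5, and in 5 of 6 bins of mitochondrial share in each. TEFM was higher in RAC1i in 4 of 5 bins of depth and in Combo in 5 of 5, and in 6 of 6 bins of share in each. SLIRP, SSBP1 and LRPPRC did not keep their direction in the shallowest cells. Under 5000 UMIs the ratio of RAC1i over DMSO was 0.817 for SLIRP (interval 0.761 to 0.877) and 0.761 for SSBP1 (0.701 to 0.827), against 2.08 and 1.597 in cells over 40000 UMIs. LRPPRC had ratios of 1.23 (1.01 to 1.505) for RAC1i and 1.28 (1.05 to 1.57) for Combo under 5000 UMIs, and it was higher than in DMSO in 4 of 6 bins of mitochondrial share in RAC1i and 1 of 6 in Combo.

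Within a library, the nuclear genes were also compared between the quintiles of cells with the lowest and the highest mitochondrial share, and they had no common direction. Among RAC1i cells with 20000 to 40000 UMIs, a depth window chosen after the data were seen, the interval of the ratio of highest over lowest quintile lay below 1 for 7 of the 20 genes, above 1 for 7 and held 1 for 6, beside 21.0% below 1 and 55.7% above 1 of all genes. In Combo it lay below 1 for 9 and above 1 for 4, beside 20.8% and 48.9%, and in DMSO below 1 for 3 and above 1 for 10, beside 17.7% and 41.7%. The quintiles covered unlike shares. The median shares of the lowest and highest quintile were 3.58% and 10.25% in DMSO, 0.649% and 3.12% in RAC1i, and 0.606% and 2.73% in Combo. Ratios of DMSO and of the treated libraries are therefore not for cells of like share. In RAC1i TFB2M was at 105 CPM in the quintile of cells with the lowest share and 65.5 CPM in the quintile with the highest, a ratio of 0.622 (interval 0.581 to 0.665). The ratio was 0.619 for TWNK (0.580 to 0.660), 0.719 for SUPV3L1 (0.656 to 0.787) and 0.801 for TFAM (0.772 to 0.831). The Combo cells of that window had ratios of 0.678 for TFB2M, 0.637 for TWNK, 0.658 for SUPV3L1 and 0.809 for TFAM. In DMSO, whose quintiles had higher median shares, the ratios were 1.00 for TFB2M (interval 0.881 to 1.13) and 1.11 for TWNK (1.003 to 1.24). They were 1.16 for SUPV3L1 (1.01 to 1.34) and 0.982 for TFAM (0.926 to 1.04). POLG2 was at 1.37 in DMSO (1.23 to 1.52), 0.784 in RAC1i (0.736 to 0.835) and 0.844 in Combo (0.790 to 0.903). Ratios above 1 in RAC1i included those of FASTKD3 at 1.72, FASTKD2 at 1.43, POLRMT at 1.42, FASTKD1 at 1.34 and PNPT1 at 1.24. LRPPRC was higher in the quintile with the highest share in each library, with ratios of 1.23, 1.248 and 1.31. Over all kept cells, whose depth varied with the share, TFB2M was at 0.539 in RAC1i and 0.491 in Combo, whereas TWNK was at 0.907 and 1.17 and POLG2 at 1.14 and 1.27, and FASTKD5 in Combo was at 1.33 against 0.804 in the window. Among ratios whose intervals left out 1 in both sets of cells, POLG2 in both treated libraries and TWNK and FASTKD5 in Combo turned direction. These values describe cells of single libraries, and MALAT1 and NEAT1, RNAs that stay in the nucleus, moved with the share in the same cells. MALAT1 was 1.82 times as high in the highest quintile of DMSO, 2.16 times in RAC1i and 2.04 times in Combo, and NEAT1 2.15, 2.57 and 2.66 times. Their part in the values of the nuclear genes was not tested.

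Promoters of the nuclear genes were read from RefSeq (GRCh38.p14) as the 250 bases before the transcription start, and 17 of the 20 genes had an entry. The letters of the nuclear respiratory factor NRF1 (GCGC, then A, any base, and GCGC) and CCGGAAG, of ETS factors such as the GABP complex, were searched on both strands, since both factors are known for genes of mitochondrial function. The first was found in 4 of the 17 genes (TFAM, POLG2, POLRMT and TFB1M) and in 6.20% of 27305 genes with a promoter, counted in the same way. The second was found in 6 of the 17 genes (POLG2, POLRMT, TFB1M, MTERF1, SLIRP and SSBP1) and in 10.2% of all genes. Of the 4 genes with the NRF1 letters, TFAM and POLG2 were higher in the treated libraries and POLRMT and TFB1M were lower. The promoters of 3 of them are shown for that reason, with the matched letters in capitals.
TFAM (chr10:58385160-58385409, plus strand): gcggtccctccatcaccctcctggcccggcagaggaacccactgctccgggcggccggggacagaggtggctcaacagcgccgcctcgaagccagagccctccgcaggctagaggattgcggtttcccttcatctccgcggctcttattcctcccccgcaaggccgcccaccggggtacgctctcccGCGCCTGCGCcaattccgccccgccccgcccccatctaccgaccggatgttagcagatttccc
POLG2 (chr17:64497055-64497304, minus strand): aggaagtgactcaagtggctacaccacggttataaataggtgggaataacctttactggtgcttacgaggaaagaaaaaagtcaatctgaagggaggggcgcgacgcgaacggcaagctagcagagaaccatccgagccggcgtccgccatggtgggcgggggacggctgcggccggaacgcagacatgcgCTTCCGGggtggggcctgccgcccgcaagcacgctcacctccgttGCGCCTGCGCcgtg
POLRMT (chr19:633538-633787, minus strand): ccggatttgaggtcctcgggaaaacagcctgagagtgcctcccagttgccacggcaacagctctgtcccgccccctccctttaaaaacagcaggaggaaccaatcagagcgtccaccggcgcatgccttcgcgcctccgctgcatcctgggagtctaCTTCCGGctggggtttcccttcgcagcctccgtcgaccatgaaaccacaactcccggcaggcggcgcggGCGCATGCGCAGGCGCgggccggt
In TFAM the capitals are an NRF1 match, in POLG2 an ETS match followed by an NRF1 match, and in POLRMT an ETS match followed by NRF1 matches that overlap each other. A match of letters is a description of the sequence and does not show binding. Only exact matches were counted, so the lack of one does not show that a promoter has no site.

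Other genes of the pathway were taken from lists. Of 27 further genes of mitochondrial RNA processing, 25 reached the minimum, 8 of these were higher and 8 lower past 1.5-fold in RAC1i (32% each, beside 22.6% and 35.8% of all genes), and their median log2 ratio was 0.02. PDE12, which removes poly(A) from mitochondrial RNA, was the highest of them in RAC1i at 19.7 CPM in DMSO, 61.3 in RAC1i and 52.0 in Combo, and FASTK the lowest at 54.0, 10.5 and 13.5 CPM. Of 14 further genes of mitochondrial DNA maintenance, 12 reached the minimum, with 2 higher (16.7%) and 5 lower (41.7%) in RAC1i, against the same 22.6% and 35.8%. DGUOK, a kinase for DNA precursors, was at 116, 346 and 342 CPM, and LONP1, the protease that degrades TFAM, at 41.3, 8.51 and 8.61 CPM. Among 10 regulators of mitochondrial genes, 5 of the 9 that reached the minimum were higher (55.6%) and 0 lower in RAC1i. GABPB1, a subunit of the GABP complex, was highest of these at 9.28, 29.0 and 25.9 CPM. MYC was at 12.8, 9.30 and 5.45 CPM, 1 of 2 of the 9 that were lower in Combo, beside 34.0% of all genes.

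The nuclear subunits of the complexes that the 13 mRNAs help to build had a median ratio near 1, though some were as low as those mRNAs. Of 74 nuclear genes of complexes I, III, IV and V, 11 were higher and 18 lower past 1.5-fold in RAC1i, beside 22.6% and 35.8% of all genes, with a median log2 ratio of 0.05. In Combo 13 were higher and 15 lower, beside 21.5% and 34.0%, with a median of 0.19. All 11 nuclear genes of complex IV lay above 0 in both treated libraries, with medians of 0.25 and 0.37, where 43.0% of all genes lay above 0 in RAC1i and 43.6% in Combo. Over a total without mitochondrial mRNAs 9 of them did in RAC1i, with COX5B and NDUFA4 below 0, and 11 in Combo. The 3 mitochondrial mRNAs of that complex had a median of -1.68 and -1.78. COX6A1 was highest of the nuclear genes at 872, 1582 and 1670 CPM, and NDUFA4, a subunit of complex IV despite its name, was lowest in RAC1i at 657, 680 and 738 CPM. For complex I the median was -0.10 over 37 nuclear genes in RAC1i and -1.603 over its 7 mitochondrial mRNAs, and 7 of the 37 were higher and 10 lower. NDUFC1 was the highest of them at 160, 308 and 343 CPM. Complex III had a median of -0.17 over 9 nuclear genes, with 1 higher and 3 lower, from UQCRC1 at 331, 150 and 161 CPM to UQCR10 at 397, 697 and 784 CPM. Complex V had a median of 0.14 over 17, with 2 higher and 5 lower, from ATP5F1D at 343, 84.9 and 88.1 CPM to ATP5MD at 881, 1423 and 1434 CPM.

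Mitochondrial ribosomal proteins, which translate the 13 mRNAs, were higher in 24 of 78 and lower in 11 of 78 genes in RAC1i (30.8% and 14.1%, beside 22.6% and 35.8% of all genes), with a median of 0.20. MRPL32 was at 57.6, 170 and 158 CPM and MRPL12 at 242, 47.7 and 54.1 CPM, the ends of the range. Among 11 genes of mitochondrial mass and import, 5 were higher (45.5%) and 2 lower (18.2%) in RAC1i, with a median of 0.37, from IMMT at 78.4, 32.6 and 38.2 CPM to the electron carrier CYCS at 280, 606 and 547 CPM.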

How the data were processed

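The authors made the libraries with a 3′ single-cell kit and counted reads with Cell Ranger 4.0.0 on GRCh38 with default settings, and the deposited counts are whole UMIs per gene and barcode without normalization. EZH2i without RAC1i was not analysed here. Cells were kept by the limits the study states, and no doublets were removed. Within each library the kept cells' UMIs were added up per gene. Ratios of CPM with exact intervals replaced tests, since there was 1 library per condition. The calculation was tested on simulated data. Genes were placed with GENCODE, and the members, lists and alternatives were chosen with earlier results of these data known. All 33 members are named, and of each list the genes with the largest rise and fall, except 1 that is not reported here. Alternatives were limits of 10% or none on mitochondrial UMIs, every barcode, cells with 10000 to 40000 UMIs, TMM (edgeR 4.0.16), size factors (DESeq2 1.42.0), a total without mitochondrial mRNAs, the mean over cells, folds of 1.25 and 2, and minimums of 1 and 10 CPM. Analyses used Python 3.11.15, scipy 1.17.1 and R 4.3.3.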

Additional observations from a re-analysis of the deposited data

How the results depend on the processing

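The total of the 13 mRNAs kept its direction under the other cell limits and scalings and as a mean over cells for RAC1i and Combo over DMSO. The log2 ratio for RAC1i was -1.66 with a limit of 10% mitochondrial UMIs, -1.85 with none, -2.01 over every barcode, -1.94 in cells with 10000 to 40000 UMIs, -1.69 by TMM, -1.65 by size factors, -1.83 over a total without these mRNAs and -1.17 as a mean over cells. For Combo it was -1.77, -1.93, -2.09, -2.06, -1.77, -1.74, -1.93 and -1.11. For Combo over RAC1i it was -0.106, -0.082, -0.087, -0.116, -0.081, -0.089, -0.093 and, as a mean over cells, 0.053. In kept cells with under 5000 UMIs, a setting added after seeing the data, it was 1.64, 1.79 and 0.15, and the cause was not tested.

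The median of the nuclear genes for RAC1i was 0.72 by TMM, 0.75 by size factors, 0.57 without mitochondrial mRNAs, 0.46 as a mean over cells, 0.56 in cells with a share of 2% to 4% and 0.80 with a minimum of 10 CPM. For Combo it was 0.75, 0.77, 0.59, 0.57, 0.53 and 0.75, and 0.54 with a minimum of 1 CPM. For Combo over RAC1i it was -0.10 at 10000 to 40000 UMIs and -0.14 at a share of 2% to 4%. At 2-fold, 6 were higher and 1 lower in RAC1i, beside 13.1% and 23.2% of all genes, and 5 and 1 in Combo, beside 12.0% and 21.3%. At the lower fold tried 5 were lower in Combo, beside 43.6% of all genes. With a share of 2% to 4%, 9 were higher and 2 lower in each, where the median of all genes was -0.12 in both. How many of all genes passed 1.5-fold was not counted in that setting. Nor was it counted over every barcode, at 10000 to 40000 UMIs or as a mean over cells. The counts of nuclear genes in these settings therefore have no share of all genes to be read against. TMM and size factors left 2 lower in Combo, where 3021 and 2933 of all genes tested were lower, against 3317 by CPM. Others gained calls, with 11 higher in RAC1i by TMM, size factors and every barcode (SSBP1 added). Of the 9745 genes tested, 2201 were higher in RAC1i by CPM, 2451 by TMM and 2543 by size factors. FASTKD3 was added to the lower genes as a mean over cells in both, for 4 each, and at 10000 to 40000 UMIs in Combo, also 4. MT-ATP8 in Combo over DMSO turned to 0.034 as a mean over cells. Size factors moved the median of all genes from -0.18 to -0.06 in RAC1i and from -0.15 to -0.03 in Combo. No paired analysis was possible because each condition was 1 library. Of 26 genes past 1.5-fold, 26 kept their direction in RAC1i and 23 their call under these limits, scalings and the mean, and in Combo 25 and 19, MT-ATP8 being the exception in direction. In RAC1i the calls of MT-ND2, MT-ND6 and TEFM were lost as a mean over cells, and that of TEFM also at 10000 to 40000 UMIs and over a total without these mRNAs. In Combo those of MT-ATP8, MT-ND2, MT-ND4L, MT-ND5, MT-ND6 and TEFM were lost as a mean over cells and that of FASTKD1 by TMM and size factors. Depth limits the shallow cells, where the ratio of POLRMT for RAC1i over DMSO was 0.640 with an interval of 0.407 to 1.00.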

Other observations

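Barcodes over the 20% limit that passed the other limits numbered 468 (DMSO), 95 (RAC1i) and 111 (Combo). They were shallow, with medians of 6260, 2976 and 3054 UMIs, and their median mitochondrial shares were 35.0%, 25.4% and 24.9%. The proportions of the mRNAs in them followed the library. MT-CO3 took 20.8% of their mitochondrial UMIs in DMSO, 14.5% in RAC1i and 13.1% in Combo, and MT-CO2 17.8%, 22.9% and 19.7%. In the barcodes over the limit that also failed another limit, with 1124, 439 and 397 of them, MT-CO3 took 21.6%, 15.1% and 14.3%. MT-ATP8 took 0.0795%, 0.0708% and 0.203% of the mitochondrial UMIs in the former set and MT-ND2 4.01%, 5.90% and 8.195%.

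The nuclear-retained RNAs MALAT1 and NEAT1 were at 25028 and 9741 CPM in the kept cells of DMSO, 13061 and 3004 CPM in RAC1i and 16183 and 2773 CPM in Combo. In the quintile of DMSO cells with the lowest mitochondrial share, MALAT1 was at 5050 CPM of the UMIs without mitochondrial mRNAs and NEAT1 at 1324 CPM, against 37088 and 15794 CPM in the quintile with the highest share. In the cells of DMSO with a mitochondrial share up to 0.5%, NEAT1 was at 279 CPM over 696 cells, and in those of RAC1i at 1330 CPM over 481 cells. The part of these cells in the ratios of the nuclear genes was not tested.

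Shares of MT-ND6, the mRNA of the opposite strand, varied with the depth of the cell in each library. They were 1.38% of mitochondrial UMIs in DMSO cells under 5000 UMIs and 0.361% in those over 40000, 1.32% and 0.353% in RAC1i, and 1.30% and 0.433% in Combo, so that the difference between depths was larger than that between libraries.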
